A study of Caenorhabditis elegans with 12 samples.

Results

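The genes of propionate breakdown followed here across 4 genotypes of Caenorhabditis elegans are 6 of the acrylyl-CoA shunt (acdh-1, ech-6, hach-1, hphd-1, alh-8 and dhgd-1) and 4 of the vitamin B12-dependent route (pcca-1, pccb-1, mce-1 and mmcm-1). They were found by WormBase gene identifier among the 46739 genes of the count tables, and all 10 were among the 14390 genes with enough counts to be tested. Both routes were chosen by their log2 changes and CPM in these same samples, in which the shunt genes were already seen to be lower in the mutants. Their values are therefore given as a description with no test, and numbers of genes past a threshold are printed beside the share of all genes past it, with nothing read from the excess.

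RNA of whole worms was sequenced from 12 samples, 3 per genotype, taken at the late L4 larval stage after growth at 20 °C. The genotypes were the eat-2(ad465); acs-20(tm3232) double mutant (strain DCL33), the eat-2(ad465) mutant (DA465), the acs-20(tm3232) mutant (DCL29) and wild-type N2. Each genotype was 1 strain, so a mutation and the rest of that strain's background cannot be told apart. Loss of eat-2, a subunit of the acetylcholine receptor that drives rapid pumping of the pharynx, makes worms eat slowly and is a common model of dietary restriction. The acs-20 product activates very long chain fatty acids and is required for an intact cuticle barrier.

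Propionyl-CoA arises from the breakdown of valine, isoleucine, methionine and odd-chain fatty acids, and propionate is toxic when it builds up. With enough vitamin B12, propionyl-CoA is carboxylated to methylmalonyl-CoA and rearranged to succinyl-CoA, which enters the citrate cycle. Caenorhabditis elegans takes its B12 from the bacteria it eats, and when B12 is short it turns on the shunt, a beta-oxidation-like path to acetyl-CoA that runs through acrylyl-CoA. The promoter of acdh-1 is widely used as a reporter of the B12 content of the diet. Because whole worms were sampled, fewer cells of a type and less RNA per cell cannot be told apart in any value below.

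Counts in genes came to 7116623 to 12016769 per library, and 44.14 to 46.51% of all reads tallied stood under HTSeq's no-feature line. The strand setting is not given, so whether these reads lay outside genes is not known. Each member was well read, from at least 105 counts per library for mce-1 to at least 9073 for acdh-1, which by counting alone gives an error of 9.76% at the lowest mce-1 count and 1.05% at the lowest acdh-1 count. Reads of eat-2 itself totalled 1 in the double mutant, 0 in eat-2 worms, 4 in acs-20 worms and 3 in wild-type, too few to check the labels. The acs-20 gene was read 678 to 1333 times per library in every genotype, which says nothing of its deletion, as reads from the rest of the gene still count. Scaled for depth, its log2 change against wild-type ran from -0.71 to -0.42 in the double mutant, -0.42 to -0.15 in eat-2 and -0.30 to -0.03 in acs-20. These ranges cover 18 fits with other settings or 1 library left out. With all libraries and the main settings, its edgeR adjusted p was under 0.05 in the double mutant alone. This was lost in 3 of the 18 fits. Markers of intestine (11 genes), hypodermis (8), body wall muscle (6) and germline (6) were all detected in every library. Their summed levels in the double mutant, eat-2, acs-20 and wild-type are given where the shunt is set beside them.

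In all 3 mutant genotypes the 6 shunt genes stood below wild-type in every library. The same held for 16.1% of all tested genes in the double mutant, 11.5% in eat-2 and 10.8% in acs-20. The shunt genes' means in the double mutant were below those of both single mutants. Relative to the wild-type mean the shunt genes stood at 34.5 to 55% in the double mutant, 58.3 to 79.8% in eat-2 and 51.6 to 70.9% in acs-20. The 4 genes of the B12-dependent route stood at 83.3 to 97.8% in the double mutant, 84.3 to 89% in eat-2 and 95.2 to 109% in acs-20. Levels below are in CPM, relative to the TMM-scaled total of the library. Log2 fold changes come from a model fitted to all genes, with their standard errors (SE). A gene is called where edgeR's quasi-likelihood test gave it an adjusted p under 0.05, by the Benjamini-Hochberg method over all 14390 tested genes.

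**Figure D1:**
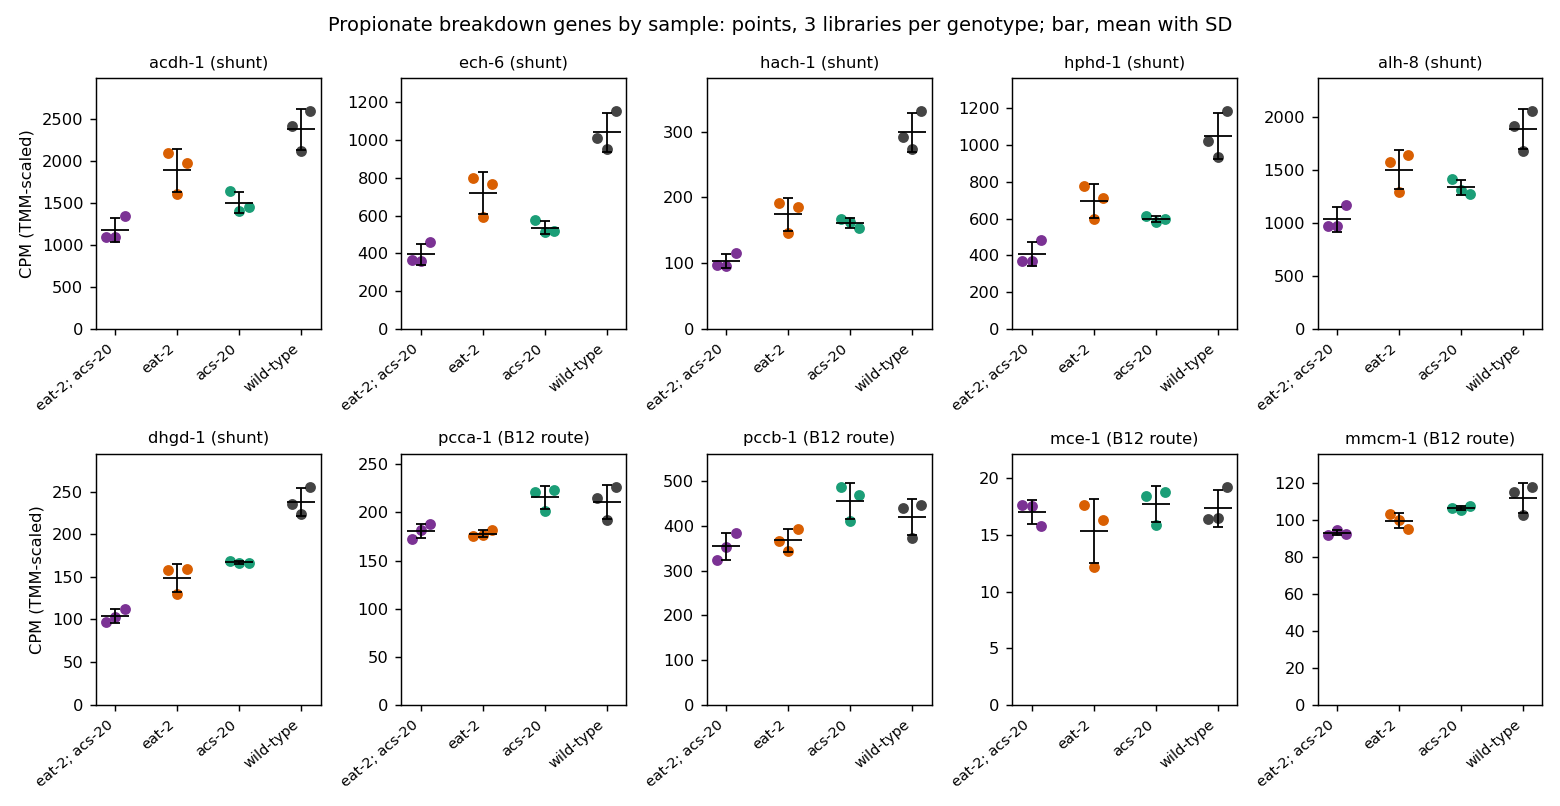
CPM of the 10 propionate genes in each of the 12 libraries (points), with the mean and SD of the 3 libraries of a genotype (bars), each panel starting at 0. In every shunt panel the double mutant is lowest and wild-type highest with no overlap between them, whereas in the B12-dependent route the genotypes lie closer together, with pcca-1 between 173 and 227 CPM and pccb-1 between 325 and 488 CPM over all 12 libraries.

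The shunt opens with acdh-1 (WBGene00016943, chromosome I), the acyl-CoA dehydrogenase that turns propionyl-CoA into acrylyl-CoA. It was read at 1095, 1095 and 1344 CPM in the double mutant, 2088, 1602 and 1973 in eat-2 worms, 1643, 1408 and 1454 in acs-20 worms, and 2413, 2112 and 2589 in wild-type. The highest double mutant library lay under the lowest library of every other genotype, and eat-2 came close to wild-type, 2088 against 2112 at the nearest pair. The log2 fold change against wild-type was -1.01 (SE 0.12) in the double mutant, -0.33 (SE 0.12) in eat-2 and -0.66 (SE 0.12) in acs-20. acdh-1 was called in the double mutant and acs-20 but not in eat-2.

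The next enzyme, the enoyl-CoA hydratase ECH-6 (WBGene00001155, chromosome III), adds water to acrylyl-CoA. ech-6 stood at 367, 358 and 460 CPM in the double mutant, 800, 592 and 770 in eat-2 worms, 577, 512 and 520 in acs-20 worms, and 1012, 955 and 1153 in wild-type. These are 4 separate ranges with no overlap, in the order double mutant, acs-20, eat-2 and wild-type from low to high. Its log2 change was -1.40 (SE 0.13) in the double mutant, -0.53 (SE 0.13) in eat-2 and -0.96 (SE 0.13) in acs-20, all called, and that in acs-20 was the lowest of the 10 members in that mutant.

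hach-1 (WBGene00017301, chromosome III) encodes the hydrolase that frees 3-hydroxypropionate from its CoA. Its levels were 97.4, 95.9 and 115 CPM in the double mutant, 191, 145 and 186 in eat-2 worms, 167, 162 and 154 in acs-20 worms, and 291, 274 and 331 in wild-type. The single mutants overlapped each other, and both lay between the double mutant and wild-type without touching either. Of the 10 members hach-1 had the lowest log2 change in the double mutant, -1.54 (SE 0.12), and in eat-2, -0.78 (SE 0.12), with -0.89 (SE 0.12) in acs-20, and it was called in all 3.

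The transhydrogenase gene hphd-1 (WBGene00012608, chromosome II) acts next, oxidising 3-hydroxypropionate to malonic semialdehyde and passing the electrons to 2-oxoglutarate, which becomes D-2-hydroxyglutarate. hphd-1 was at 369, 371 and 484 CPM in the double mutant, 777, 598 and 712 in eat-2 worms, 617, 585 and 600 in acs-20 worms, and 1025, 938 and 1185 in wild-type. Again the single mutants shared a range, with the double mutant below and wild-type above it. The log2 change was -1.36 (SE 0.13) in the double mutant, -0.59 (SE 0.13) in eat-2 and -0.80 (SE 0.13) in acs-20, all called.

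alh-8 (WBGene00000114, chromosome II) encodes the dehydrogenase that makes acetyl-CoA from malonic semialdehyde, the last step of the shunt. Levels were 968, 968 and 1172 CPM in the double mutant, 1575, 1290 and 1639 in eat-2 worms, 1416, 1311 and 1276 in acs-20 worms, and 1914, 1680 and 2052 in wild-type. All mutant libraries lay under the wild-type range, with 1639 in eat-2 against 1680 in wild-type at the nearest pair. Of the shunt genes alh-8 moved least in all 3 mutants, by a log2 of -0.86 (SE 0.11) in the double mutant and -0.50 (SE 0.11) in acs-20, both called, and -0.33 (SE 0.11) in eat-2, not called. It shares 34 exonic bases with F13D12.8 on the opposite strand, where reads of the 2 genes cannot be told apart if strand was not used.

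The dehydrogenase gene dhgd-1 (WBGene00010055, chromosome II) is not a step of the chain but clears the D-2-hydroxyglutarate that HPHD-1 makes. It stood at 96.7, 103 and 113 CPM in the double mutant, 158, 130 and 159 in eat-2 worms, 169, 166 and 166 in acs-20 worms, and 235.3, 223 and 256 in wild-type. The 3 acs-20 libraries nearly coincided, and all of them lay above all eat-2 libraries, the reverse of the order of the group means for the 5 other shunt genes. The log2 change was -1.19 (SE 0.10) in the double mutant, -0.68 (SE 0.10) in eat-2 and -0.51 (SE 0.10) in acs-20, all called.

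The B12-dependent route starts with propionyl-CoA carboxylase, a biotin enzyme whose alpha subunit is encoded by pcca-1 (WBGene00017864, chromosome X) and whose beta subunit by pccb-1 (WBGene00018701, chromosome X). pcca-1 stood at 173, 182 and 188 CPM in the double mutant, 176, 177 and 182 in eat-2 worms, 222, 202 and 224 in acs-20 worms, and 215, 192 and 227 in wild-type. The libraries carrying the eat-2 mutation, with acs-20 mutated or intact, lay just under all others, and acs-20 shared the wild-type range. The log2 change of pcca-1 was -0.23 (SE 0.09) in the double mutant, -0.25 (SE 0.09) in eat-2 and 0.03 (SE 0.09) in acs-20 worms, and none was called. pccb-1 had 325, 353 and 385 CPM in the double mutant, 367, 343 and 393 in eat-2 worms, 488, 412 and 470 in acs-20 worms, and 441, 374 and 446 in wild-type. Its double mutant, eat-2 and wild-type ranges overlapped, and its log2 change was -0.25 (SE 0.11) in the double mutant, -0.19 (SE 0.11) in eat-2 and 0.12 (SE 0.11) in acs-20, none called. pccb-1 shares 43 exonic bases with wrt-2 on the opposite strand.

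Methylmalonyl-CoA epimerase, from mce-1 (WBGene00008415, chromosome I), turns the product over for the mutase. mce-1 was the least read member, at 17.6, 17.6 and 15.8 CPM in the double mutant, 17.6, 12.2 and 16.3 in eat-2 worms, 18.5, 15.9 and 18.8 in acs-20 worms, and 16.4, 16.5 and 19.2 in wild-type, and all 4 genotypes overlapped. Its log2 change was -0.03 (SE 0.14) in the double mutant, -0.18 (SE 0.15) in eat-2 and 0.03 (SE 0.14) in acs-20. The route ends with methylmalonyl-CoA mutase, the enzyme of the route that carries the B12 cofactor, encoded by mmcm-1 (WBGene00014202, chromosome III). mmcm-1 had 92, 94.8 and 92.6 CPM in the double mutant, 103, 100 and 95.1 in eat-2 worms, 106, 105 and 108 in acs-20 worms, and 115, 102 and 118 in wild-type. Only the double mutant lay wholly under wild-type. Its log2 change was -0.26 (SE 0.08) in the double mutant, -0.17 (SE 0.08) in eat-2 and -0.07 (SE 0.08) in acs-20. The first was called, the single B12-route call against wild-type, and it was lost in 9 of 18 alternative fits. DESeq2, and edgeR without wild-type replicate 2, called 2 genes of the route there, pcca-1 and mmcm-1.

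**Figure D2:**
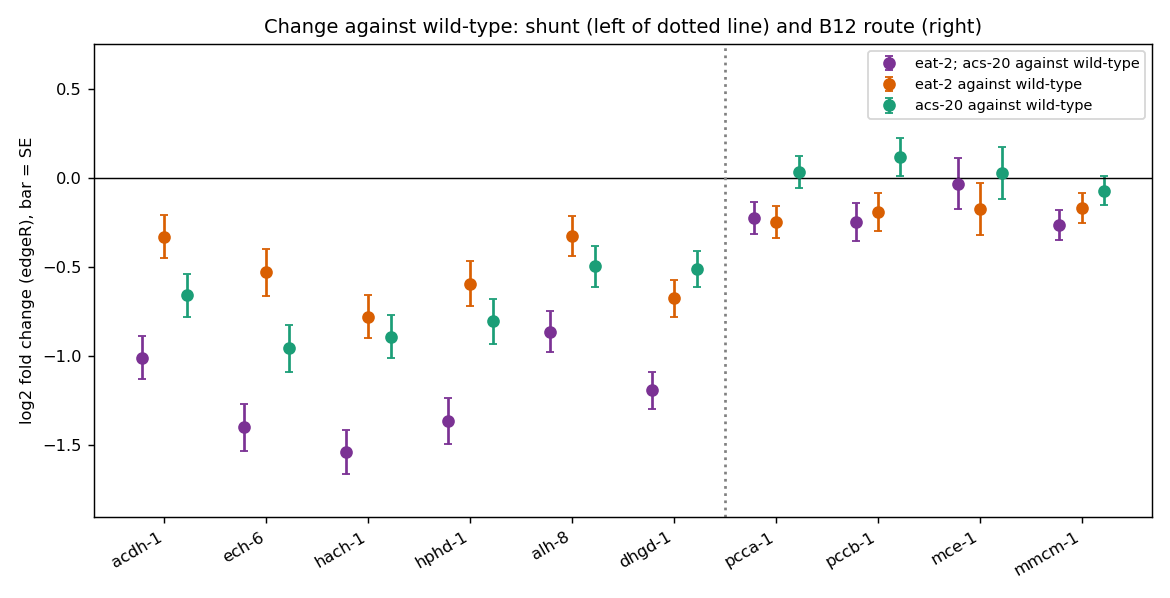
Log2 fold change of each member against wild-type in the double mutant, eat-2 and acs-20 (points, bars are the SE from edgeR), with the shunt left of the dotted line and the B12-dependent route right of it. Shunt points run from -1.54 to -0.33, and those of the B12-dependent route from -0.26 to 0.12.

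Set together, the shunt's median log2 change was -1.28 in the double mutant, -0.56 in eat-2 and -0.73 in acs-20. The median of the B12-dependent route was -0.24 in the double mutant, -0.18 in eat-2 and 0.03 in acs-20 worms, and that of all tested genes was 0.04, 0.04 and 0.01 in the same order. The gap between the route medians was thus -1.04 in the double mutant, -0.38 in eat-2 and -0.76 in acs-20. Genes called lower in the double mutant were 6 of 6 in the shunt and 1 of 4 in the B12-dependent route, where 8.62% of all tested genes were called lower. In eat-2 they were 4 of 6 and 0 of 4, against 3.54% of all genes, and in acs-20 6 of 6 and 0 of 4, against 1.22%. No member was called higher in any mutant, where 8.94% of all tested genes were in the double mutant, 4.12% in eat-2 and 0.987% in acs-20. None was at an unadjusted p under 0.05 in that direction by edgeR, and DESeq2 called none higher. For the counts of 0 in the B12-dependent route, edgeR gave 1 gene in eat-2 and 0 in acs-20 at an unadjusted p under 0.05, and DESeq2 called 0 in both.

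The shunt genes called lower in eat-2 numbered 6 without the filter on low counts and 2 without wild-type replicate 3, and those called lower in acs-20 numbered 3 without acs-20 replicate 3. Over the 18 alternative fits the eat-2 calls were lost 3 times for ech-6 and 1 time for hphd-1. Those in acs-20 were lost 5 times for alh-8, 4 times for dhgd-1 and 1 time for acdh-1. In the double mutant all 6 were called in each of the 12 fits that left out 1 library, and in all 5 comparisons every shunt gene kept a negative log2 change in each of those fits. All 3 mutant libraries lay under all 3 wild-type libraries for 6 of 6 shunt genes in each mutant, and for 2, 1 and 0 of the 4 B12-route genes in the double mutant, eat-2 and acs-20. Over all tested genes this held for 16.1% in the double mutant, 11.5% in eat-2 and 10.8% in acs-20.

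Markers of other tissues and of stage were set beside these values, and nothing is read from how many were called. Of all tested genes 8.62% were called lower and 8.94% higher in the double mutant. The shares were 3.54% and 4.12% in eat-2, and 1.22% and 0.987% in acs-20. Each sum of marker CPM follows its most abundant genes. For intestine asp-1 averaged 10570 CPM in eat-2 and 8247 in wild-type, and for muscle unc-54 averaged 2938 and 3915. The median log2 change of the intestinal list was -0.12 in the double mutant, -0.03 in eat-2 and -0.16 in acs-20. Summed intestinal markers ran from 12140 to 13540 CPM in the double mutant, 13810 to 17840 in eat-2, 11650 to 12650 in acs-20 and 12310 to 13800 in wild-type, and 1 of 11 was called higher and 2 lower in the double mutant, 0 and 1 in eat-2, and 1 and 0 in acs-20. Hypodermal markers summed to 575.7 to 684.8 CPM in the double mutant, 660.7 to 806.3 in eat-2, 480.5 to 725.9 in acs-20 and 602.6 to 775 in wild-type, and 2 of 8 were called higher in the double mutant, 1 in eat-2 and 0 in acs-20. In acs-20 edgeR gave 2 at an unadjusted p under 0.05 and DESeq2 called 0. Body wall muscle markers summed to 4797 to 5929 CPM in the double mutant and 4853 to 5774 in eat-2, below the 6032 to 7396 in acs-20 and the 6293 to 7348 in wild-type. Of its 6 genes 2 were called lower in the double mutant, 2 lower in eat-2 and 1 higher in acs-20. Germline markers summed to 699.4 to 923.3 CPM in the double mutant, 574.7 to 1042 in eat-2, 703 to 1177 in acs-20 and 538.8 to 1011 in wild-type, with none of the 6 called in any mutant by edgeR or DESeq2, and 1, 0 and 0 at an unadjusted p under 0.05 in the double mutant, eat-2 and acs-20.

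The 10 adult-stage genes, 6 vitellogenins among them, differed far more, at 1550 to 2263 CPM in the double mutant, 1311 to 1581 in eat-2, 4647 to 13490 in acs-20 and 5590 to 11820 in wild-type. Of these 7 were called lower in the double mutant, 6 in eat-2 and 0 in acs-20, beside 8.62%, 3.54% and 1.22% of all tested genes. In acs-20 edgeR gave 0 of these 10 at an unadjusted p under 0.05 and DESeq2 called 0. The part of developmental timing, or of the lower body wall muscle markers, in the shunt levels was not tested in any mutant. The median library had 4962 CPM of these genes in acs-20 and 10160 in wild-type. The most abundant of these genes was rol-1 in eat-2, with a mean of 1065 CPM, and vit-6 in wild-type, with 3649.

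Levels of different genes were compared per length, as TPM, the count of a gene over its summed exon length, relative to the same summed over all genes. In wild-type acdh-1 was highest at 1391 ± 114.2 TPM (SD, n = 3), followed by alh-8 at 1046 ± 84.2, ech-6 at 1008 ± 82.7 and hphd-1 at 621 ± 63.7. pccb-1 at 222 ± 16.9 TPM came next and overlapped hach-1 at 197 ± 16.2. Then came dhgd-1 at 141 ± 7.29, pcca-1 at 85 ± 5.41, mmcm-1 at 44.4 ± 2.37 and mce-1 at 21.1 ± 1.75 TPM. Apart from pccb-1 with hach-1, the neighbours alh-8 and ech-6 were the other pair whose wild-type libraries overlapped.

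This order held in both single mutants, with every pair of neighbours apart, and changed in 1 place in the double mutant. There pcca-1, at 78.9 ± 1.72 TPM, stood level with hach-1 at 73.6 ± 6.07 and above dhgd-1 at 66.8 ± 3.63, and its libraries overlapped those of hach-1, as did those of dhgd-1. Summed over its 6 genes, the shunt held 2190 ± 225 TPM in the double mutant, 3318 ± 261 in eat-2 worms, 2775 ± 142 in acs-20 worms and 4403 ± 360 in wild-type. Over its 4 genes the B12-dependent route held 345 ± 12.1 TPM in the double mutant, 332 ± 11.6 in eat-2 worms, 403 ± 29 in acs-20 worms and 373 ± 25.1 in wild-type.

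The ratio of these sums, taken within each library, was 6.27, 5.87 and 6.91 in the double mutant, 10.9, 8.97 and 10.2 in eat-2 worms, 7.01, 7.23 and 6.49 in acs-20 worms, and 11.4, 11.8 and 12.2 in wild-type. All libraries with the acs-20 mutation lay between 5.87 and 7.23, and the others between 8.97 and 12.2. On this within-library scale the double mutant overlapped acs-20 and eat-2 lay just under wild-type. These sums follow their most abundant genes. In wild-type acdh-1 held 1391 TPM and dhgd-1 141 in the shunt, and pccb-1 held 222 and mce-1 21.1 in the B12-dependent route. The ratio of the entry enzymes, acdh-1 over pcca-1, was 9.25, 8.8 and 10.4 in the double mutant, 17.3, 13.2 and 15.8 in eat-2 worms, 10.8, 10.2 and 9.48 in acs-20 worms, and 16.4, 16 and 16.6 in wild-type. eat-2 overlapped wild-type in this ratio, as acdh-1 and pcca-1 both stood lower in eat-2.

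The double mutant was next set against each single mutant. Against eat-2, which leaves the acs-20 mutation as the difference, all 6 shunt genes were called lower, with log2 changes from -0.87 for ech-6 (SE 0.13) to -0.51 for dhgd-1 (SE 0.10) and a median of -0.72. The B12-dependent route had a median of -0.02 and none of its 4 genes was called, by edgeR or by DESeq2 or at an unadjusted p under 0.05 in edgeR. Of all tested genes 0.757% were called lower in this comparison. Leaving out either replicate 1 or replicate 2 of the double mutant brought the 6 shunt calls to 3.

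Against acs-20, which leaves the eat-2 mutation as the difference, 5 of 6 shunt genes were called lower, where 5.31% of all genes were. dhgd-1 (-0.68, SE 0.10) and hach-1 (-0.65, SE 0.12) were lowest, followed by hphd-1 (-0.56, SE 0.13), ech-6 (-0.44, SE 0.13) and alh-8 (-0.37, SE 0.11), and acdh-1 at -0.35 (SE 0.12) was not called. Of the B12-dependent route pccb-1 was called, at -0.37 (SE 0.11), and the route's median was -0.22. These counts were less steady than the others, with 3 shunt calls when wild-type replicate 1, acs-20 replicate 1, acs-20 replicate 3 or replicate 1 of the double mutant was left out. Without replicate 2 of the double mutant 2 were called, and pccb-1 was not called in any of those 5 fits.

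In both pairs of comparisons acdh-1, ech-6, hach-1, hphd-1 and alh-8 had the lower log2 change with the acs-20 mutation and dhgd-1 with the eat-2 mutation, a difference that was not tested. ech-6 changed by -0.96 in acs-20 against wild-type and -0.87 in the double mutant against eat-2, and by -0.53 in eat-2 against wild-type and -0.44 in the double mutant against acs-20. dhgd-1 changed by -0.51 in each of the comparisons that add the acs-20 mutation, and by -0.68 in each of those that add the eat-2 mutation. These comparisons share libraries with one another, so their likeness is not independent.

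Whether the eat-2 effect depended on acs-20 was asked with the interaction, which subtracts the log2 change of eat-2 against wild-type from that of the double mutant against acs-20. On the log2 scale the double mutant lay close to the sum of the single mutants for all 10 members. For hach-1 the double mutant stood at -1.54 and the sum at -1.67, a difference of 0.13 (SE 0.17), the largest among the shunt genes. ech-6 stood at -1.40 with a sum of -1.49, hphd-1 at -1.36 with -1.40, dhgd-1 at -1.19 with -1.19, acdh-1 at -1.01 with -0.99 and alh-8 at -0.86 with -0.82. In percent of the wild-type fitted level, acdh-1 stood at 49.7% in the double mutant, against 50.4% for the product of its single-mutant levels, and hphd-1 at 38.9% against 38%.

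Differences for the B12-dependent route ran from -0.17 (pccb-1, SE 0.15) to 0.11 (mce-1, SE 0.20). By edgeR and by DESeq2, 0 of 10 members were called for the interaction, and edgeR gave 0 at an unadjusted p under 0.05. Over all tested genes 0.188% were called in either direction. The 95% intervals show how much could have been missed, from -0.23 to 0.50 for hach-1, -0.38 to 0.34 for acdh-1 and -0.31 to 0.31 for dhgd-1, so that departures from additivity of up to about those sizes are not excluded.

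**Figure D3:**
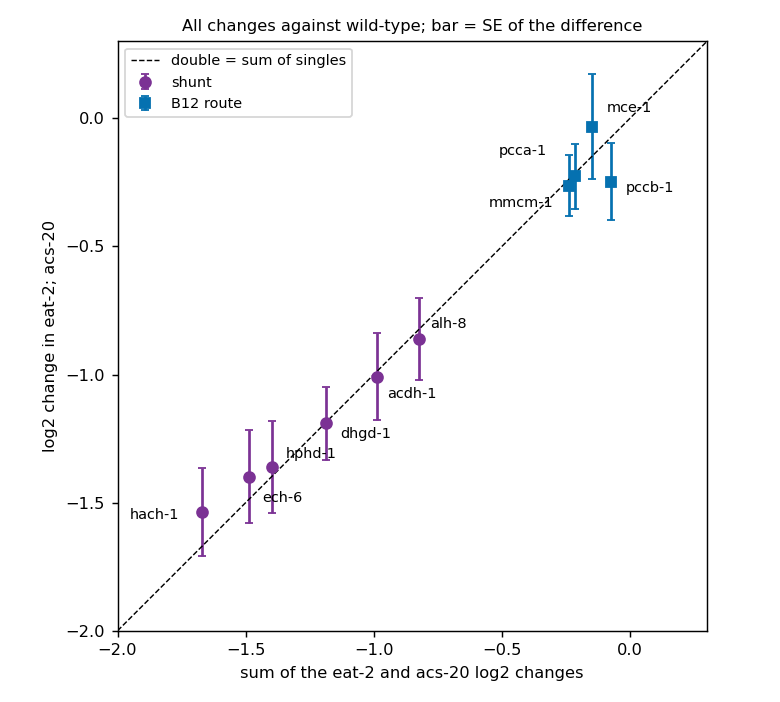
Log2 change of each member in the double mutant (vertical axis) and the sum of its log2 changes in eat-2 and acs-20 (horizontal axis), all against the same wild-type libraries, with bars for the SE of the difference and a dashed line of equality. The 6 shunt genes lie from -1.67 to -0.82 on the horizontal axis and within 1 SE of the line, and the bars of all but pccb-1 reach it.

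Within a genotype the shunt genes also varied together from library to library. All 6 were at their lowest in eat-2 replicate 2 and wild-type replicate 2, and at their highest in double mutant replicate 3, acs-20 replicate 1 and wild-type replicate 3. The mean departure of the 6 from their genotype mean reached 0.19 on the log2 scale in double mutant replicate 3, and -0.23 in eat-2 replicate 2. In the same libraries the 4 genes of the B12-dependent route departed by 0.02 and -0.10. In the other libraries named, the routes departed by more similar amounts, the shunt by -0.13 and the B12-dependent route by -0.12 in wild-type replicate 2, 0.14 and 0.11 in wild-type replicate 3, and 0.07 and 0.05 in acs-20 replicate 1.

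Over the 12 libraries, each centred on its genotype, Pearson's r between shunt genes ran from 0.897 to 0.976 over 15 pairs. Between genes of the B12-dependent route it ran from 0.272 to 0.904 over 6 pairs, and across the routes from 0.238 to 0.813 over 24 pairs. These r values describe the 12 libraries and share each library's scaling factor, so part of any r can come from scaling.

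**Figure D4:**
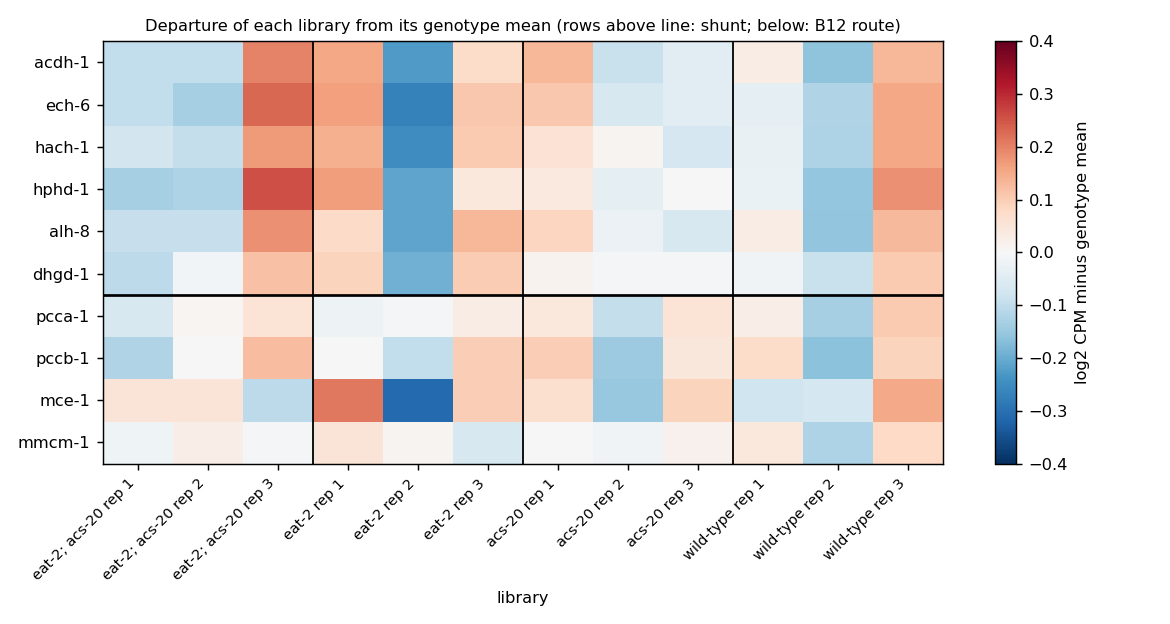
Departure of each library's log2 CPM from its genotype mean, for the 10 members (rows) and 12 libraries (columns), red above and blue below the mean. The 6 shunt rows have nearly the same colours in every column, with eat-2 replicate 2 lowest (mean departure -0.23) and double mutant replicate 3 highest (0.19).

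Genes with the most similar course over the 12 libraries were found by the root mean square difference of centred log2 CPM, among genes with an average log2 CPM of at least 3. Nearest to acdh-1 of 8845 candidates was pmt-2, a phosphoethanolamine methyltransferase of phosphatidylcholine synthesis, at a difference of 0.0855. alh-8 followed at 0.0861, then mtrr-1, the methionine synthase reductase gene, at 0.103. Next were pmp-5, an ABC transporter gene whose human relative ABCD4 moves B12 out of lysosomes, at 0.122, and the lipid-binding protein gene lbp-6 at 0.124. Nearest to the mean course of the 6 shunt genes were hphd-1 at 0.0618, acdh-1 at 0.0987, the gene pho-13 at 0.108, ech-6 at 0.11 and hach-1 at 0.117, all but pho-13 being part of that mean. The other shunt genes lay at 0.13 (dhgd-1) and 0.133 (alh-8), and the B12-route genes at 0.374 (mmcm-1) to 0.463 (mce-1).

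pho-13 was lower by a log2 of -1.22 in the double mutant (edgeR adjusted p = 5.45e-05), -0.60 in eat-2 (0.0139) and -0.56 in acs-20 (0.0432). The eat-2 call was lost in 3 and the acs-20 call in 7 of 18 alternative fits, with adjusted p up to 0.0576 and 0.19. lbp-6 fell by 0.85 in the double mutant (edgeR adjusted p = 0.000467), and had -0.28 in eat-2 (0.201) and -0.48 in acs-20 (0.0639), where 8 of 18 alternative fits called it.

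The genes that handle B12 and regulate the shunt were then examined as a list of 12, none of them a member. In edgeR 3 were called lower and none higher in the double mutant, 0 in eat-2 and 3 lower in acs-20, with medians of -0.18, 0.01 and -0.33, beside 0.04, 0.04 and 0.01 for all tested genes. Of all tested genes 8.62%, 3.54% and 1.22% were called lower in the same order. In eat-2 edgeR gave 4 of the 12 at an unadjusted p under 0.05 and DESeq2 called 1, and in acs-20 DESeq2 called 5. Here and for the other lists, the shares of all genes are of edgeR's adjusted calls. They are no yardstick for the unadjusted or DESeq2 counts. The nuclear receptor genes nhr-10 and nhr-68 switch the shunt on when propionate persists. Neither was called in any mutant by the edgeR fit on genotype alone, with all libraries and the filter. nhr-10 averaged 19.6 ± 1.56 CPM in the double mutant, 18.4 ± 2.02 in eat-2 worms, 19 ± 1.87 in acs-20 worms and 18.2 ± 2.34 in wild-type (SD, n = 3 each), with its log2 changes between 0.01 and 0.10.

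nhr-68 averaged 72.9 ± 5.46 CPM in the double mutant, 95.5 ± 13.2 in eat-2 worms, 62.1 ± 5.64 in acs-20 worms and 85.3 ± 9.61 in wild-type. Its acs-20 libraries lay wholly under wild-type at a log2 change of -0.46 (SE 0.12, edgeR adjusted p = 0.0793). Of 18 alternative fits 4 called it there. Among them were DESeq2 (adjusted p = 0.0309), edgeR without the filter (0.00819) and edgeR with the replicate number as a block (0.00979). Over all 18 the adjusted p ran from 0.00819 to 0.26. Its eat-2 libraries overlapped wild-type at 0.16 (edgeR adjusted p = 0.499). nhr-114, a nuclear receptor that activates methionine cycle genes when B12 is low, was lower in the double mutant by -0.71 (SE 0.21, edgeR adjusted p = 0.0339), and this call was lost in 5 of 18 alternative fits, with adjusted p up to 0.109.

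pmp-5 fell to 174 ± 23.8 CPM in the double mutant and 219 ± 7.13 in acs-20, against 317 ± 18 in wild-type, with 258 ± 25 in eat-2 (SD, n = 3 each). Its log2 change was -0.86 in the double mutant (SE 0.11, edgeR adjusted p = 0.000187), -0.29 in eat-2 (0.13) and -0.53 in acs-20 (0.0208). The gene of methionine synthase reductase, mtrr-1, was lower by -0.82 in the double mutant (SE 0.15, edgeR adjusted p = 0.00252), with -0.23 in eat-2 (0.441) and -0.61 in acs-20 (0.0587), where 6 of 18 alternative fits called it. Both were picked above as near in course to acdh-1, so their likeness to it is no separate result. The double mutant was lowest, acs-20 next and eat-2 nearest to wild-type.

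Other genes of the list had another order. mmaa-1, the chaperone gene of the mutase, averaged 90.9 ± 9.82 CPM in the double mutant, 124 ± 15.3 in eat-2 worms, 67.5 ± 11.2 in acs-20 worms and 106 ± 8.84 in wild-type. Its log2 change was -0.65 in acs-20 (SE 0.14, edgeR adjusted p = 0.0208), against 0.22 in eat-2 (0.379) and -0.22 in the double mutant (0.288). metr-1, the B12-dependent methionine synthase gene, averaged 770 ± 68.5 CPM in the double mutant, 1033 ± 78.1 in eat-2 worms, 597 ± 106 in acs-20 worms and 861 ± 55.4 in wild-type. It was lower by -0.53 in acs-20 (SE 0.12, edgeR adjusted p = 0.0401), and had 0.26 in eat-2 (0.237) and -0.16 in the double mutant (0.407).

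In both genes acs-20 was lowest and eat-2 highest, and the double mutant stood between them. The calls of mmaa-1, pmp-5 and metr-1 in acs-20 were lost in 5, 5 and 8 of 18 alternative fits, with adjusted p up to 0.0906, 0.0976 and 0.138. mmab-1, the gene of the transferase that makes the mutase's B12 cofactor, stood at 20.9 ± 0.684 CPM in the double mutant, 23.7 ± 4.05 in eat-2 worms, 21.6 ± 2.52 in acs-20 worms and 23.4 ± 2.4 in wild-type, and was not called, with log2 changes from -0.16 to 0.02.

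**Figure D5:**
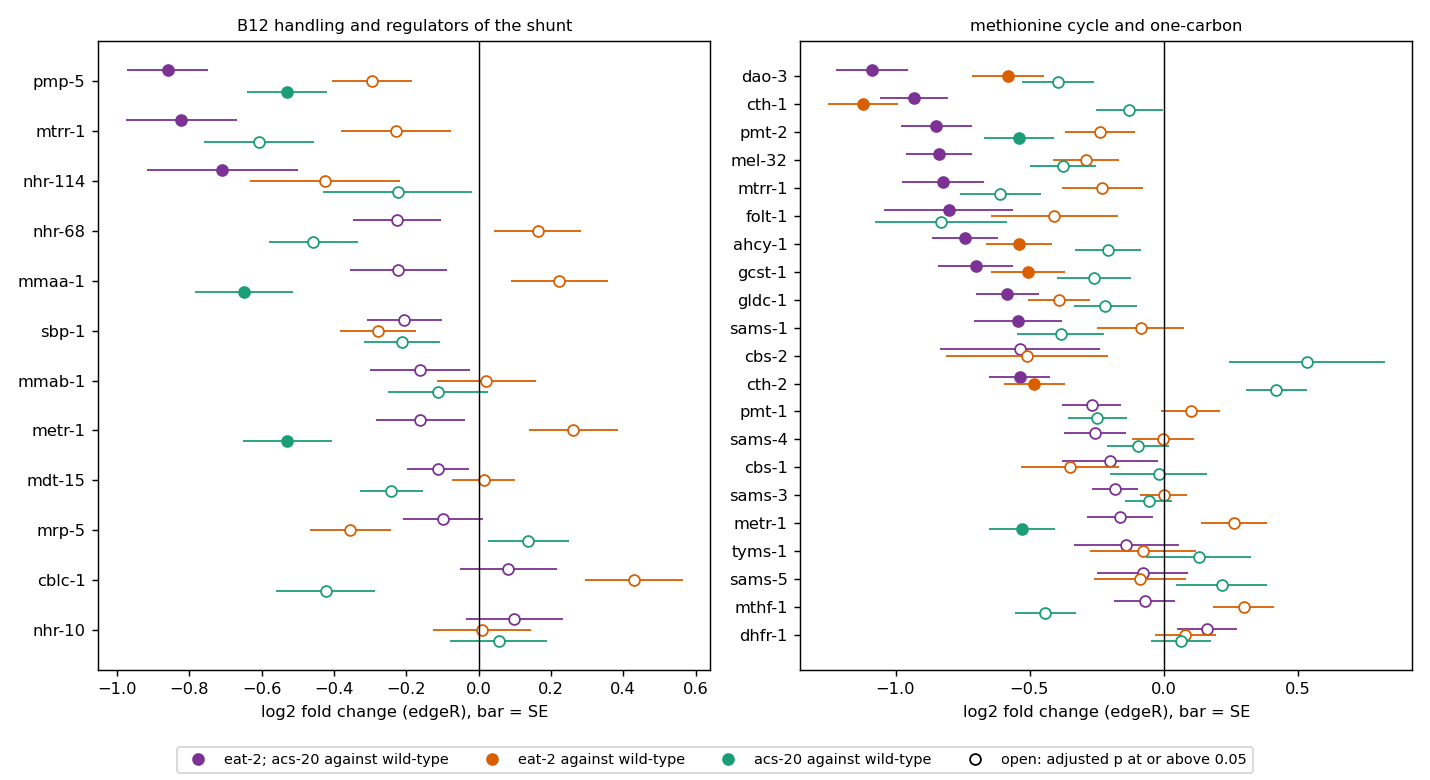
Log2 change against wild-type in the double mutant, eat-2 and acs-20 for 12 genes of B12 handling and shunt regulation (left) and 21 of the methionine cycle and one-carbon metabolism (right). Bars are the SE from edgeR and filled points are called. In the double mutant 3 genes on the left and 11 on the right are called lower. For several genes, metr-1, mmaa-1, nhr-68, cblc-1 and mthf-1 among them, the eat-2 point lies right of 0 and the acs-20 point left of it.

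The methionine cycle spends and restores the methyl donor S-adenosylmethionine, and metr-1 is its B12-dependent step; metr-1 and mtrr-1 stand in this list as well as in that of B12 handling. Of 21 genes of this cycle and of one-carbon metabolism, 11 were called lower in the double mutant, 5 in eat-2 and 2 in acs-20 worms, and none was called higher. The shares of all genes called lower were 8.62%, 3.54% and 1.22%. In acs-20 DESeq2 called 5. The list's median log2 changes were -0.54, -0.24 and -0.22, beside 0.04, 0.04 and 0.01 for all tested genes. dao-3, of mitochondrial folate metabolism, was lower by -1.09 in the double mutant (SE 0.14, edgeR adjusted p = 0.000129) and -0.58 in eat-2 (SE 0.13, 0.017; lost in 4 of 18 alternative fits), and the serine hydroxymethyltransferase gene mel-32 by -0.84 in the double mutant (SE 0.12, 0.000526).

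The cystathionine gamma-lyase gene cth-1 differed by -0.93 in the double mutant (edgeR adjusted p = 0.000307), -1.12 in eat-2 (0.000133) and -0.13 in acs-20 (0.691). ahcy-1, which breaks down S-adenosylhomocysteine, was lower by -0.74 in the double mutant (edgeR adjusted p = 0.00128) and -0.54 in eat-2 (0.0167), the eat-2 call being lost in 3 of 18 alternative fits. pmt-2, nearest in course to acdh-1, was lower by -0.85 in the double mutant (SE 0.13, edgeR adjusted p = 0.000761) and had -0.24 in eat-2 (0.336). In acs-20 it was at -0.54, and its call there (edgeR adjusted p = 0.0499) was lost in 9 of 18 alternative fits.

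Upstream of propionyl-CoA lies the breakdown of valine and isoleucine. The list used here covers the branched-chain amino acids as a whole, so not all of its genes lead to propionyl-CoA. Of 11 tested genes in this list 10 were called lower in the double mutant, 6 in eat-2 and 1 in acs-20 worms, and none higher, with medians of -0.63, -0.37 and -0.14, beside 8.62%, 3.54% and 1.22% of all tested genes called lower. kat-1, a ketoacyl-CoA thiolase gene, was lower by -0.96 in the double mutant (SE 0.10, edgeR adjusted p = 4.34e-05), -0.64 in eat-2 (SE 0.10, 0.00174) and -0.45 in acs-20 (SE 0.10, 0.036). The last of these was lost in 7 of 18 alternative fits. dbt-1, of the branched-chain ketoacid dehydrogenase complex, was lower by -0.75 in the double mutant (edgeR adjusted p = 0.000239) and -0.56 in eat-2 (0.00376), and bckd-1B of the same complex by -0.48 in eat-2 (0.0098). acdh-9, an acyl-CoA dehydrogenase gene, was lower by -0.68 in the double mutant (edgeR adjusted p = 0.000374).

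Downstream, 22 citrate cycle genes had 9 called lower in the double mutant, 3 in eat-2 and 0 in acs-20, with medians of -0.24, -0.14 and -0.05, beside 8.62%, 3.54% and 1.22% of all tested genes called lower. In acs-20 edgeR gave 3 at an unadjusted p under 0.05 and DESeq2 called 0. The succinyl-CoA ligase genes sucl-2 and sucl-1, whose enzyme takes up the end product of the B12-dependent route, were among the called ones. The list's other genes of this enzyme, suca-1 and sucg-1, were not called in eat-2. sucl-2 was lower by -0.60 in the double mutant (SE 0.10, edgeR adjusted p = 0.00132) and -0.41 in eat-2 (0.023), and sucl-1 by -0.49 (0.0027) and -0.34 (0.0398) in the same genotypes. mdh-1, a malate dehydrogenase gene, was lower by -0.54 (edgeR adjusted p = 0.00255) and -0.39 (0.0322). The eat-2 calls of sucl-2, mdh-1 and sucl-1 were lost in 4, 6 and 10 of 18 alternative fits.

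Relatives of the first shunt enzymes were also listed. Of 13 other acyl-CoA dehydrogenase genes 7 were called lower in the double mutant, 6 in eat-2 and 1 in acs-20 worms, and none higher, with medians of -0.39, -0.32 and -0.15, beside 8.62%, 3.54% and 1.22% of all tested genes called lower. acdh-3, acdh-9 and ivd-1 stand both here and among the branched-chain genes. acdh-2, a close relative of acdh-1, was read at 0.428 ± 0.28 CPM in the double mutant, 1.25 ± 0.234 in eat-2 worms, 1.83 ± 0.116 in acs-20 worms and 12.5 ± 6.91 in wild-type. Its log2 change was -4.77 in the double mutant (SE 0.46, edgeR adjusted p = 1.55e-05), -3.29 in eat-2 (SE 0.40, 0.000173) and -2.77 in acs-20 (SE 0.38, 0.00106). Its wild-type level was far under the 2372 ± 241 CPM of acdh-1. Reads that fit both genes may have been set aside by the authors' counting, and that share is not known.

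acdh-7 was lower by -0.79 in the double mutant (edgeR adjusted p = 0.000605) and -0.60 in eat-2 (0.00724), and acdh-12 by -0.45 in eat-2 (0.01; lost in 1 of 18 alternative fits). Of 9 other enoyl-CoA hydratase genes, relatives of ech-6, 4 were called lower and 1 higher in the double mutant, 2 and 1 in eat-2, and 1 and 0 in acs-20, with medians of -0.39, -0.34 and -0.16. Of all tested genes 8.62% were called lower and 8.94% higher in the double mutant, 3.54% and 4.12% in eat-2, and 1.22% and 0.987% in acs-20. DESeq2 called 5 of the 9 in eat-2 and 2 in acs-20, in either direction. ech-9 ran against ech-6 in the libraries with the eat-2 mutation, with log2 changes of 4.32 in the double mutant (SE 0.24, edgeR adjusted p = 1.67e-07), 4.81 in eat-2 (SE 0.24, 7.99e-08) and -1.68 in acs-20 (SE 0.40, 0.0432). The last was lost in 10 of 18 alternative fits. Mean levels of ech-9 were 50.18 CPM in the double mutant and 70.63 in eat-2, but only 0.7347 in acs-20 and 2.475 in wild-type. ech-4 was lower by -0.61 in the double mutant (edgeR adjusted p = 0.000986) and -0.49 in eat-2 (0.00715), and ech-5 by -0.58 (0.00299) and -0.51 (0.0135), the last lost in 1 of 18 alternative fits.

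No gene of these 6 lists that the text names was called for the interaction. In the lists edgeR called 0 and DESeq2 called 0, and 3 of the 6 lists had 1 gene each at an unadjusted p under 0.05 in edgeR.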

How the data were processed

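Per the file headers and labels, each deposited table lists 1 sample's whole-number counts of reads by gene, which the authors had not normalized. FastQC 0.11.5, HTSeq, TopHat2 and DESeq2 are listed, with no roles, in the submitters' processing notes. Genome build, annotation release, kit and strand setting: not given in the sources used here, so no coordinates are printed. HTSeq's summary lines were left out of library sizes. Symbols, chromosomes and exon lengths came from an Ensembl annotation of WBcel235, which gave a symbol to 43720 of 46739 genes.

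With edgeR 4.0.16 in R 4.3.3, counts went through filterByExpr by genotype at its defaults (minimum count 10, minimum total 15), TMM factors (0.9207 to 1.098), 4 group means fitted to all 12 samples with 8 residual degrees of freedom, and robust quasi-likelihood tests for 6 comparisons, adjusted over 14390 genes. The model was tested on simulated data. Log2 CPM used a prior count of 2. TPM used all annotated genes. The labels do not say whether replicates were separate cultures, so p-values measure the spread between samples, which may be technical. Alternatives tried were DESeq2 1.42.0, RLE factors, no filter, the compared groups alone, the replicate number as a block, ribosomal RNA genes left out, and leaving out each sample. In each mutant against wild-type and the interaction, the rule for naming took up to 3 called genes of each list by p, beside the members, a fixed set of B12 genes and the nearest profiles. Members, lists and rules were chosen with earlier results of these data known. Of the branched-chain list 3 of 14 names matched no symbol in the annotation.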

Additional observations from a re-analysis of the deposited data

How the results depend on the processing

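Over 18 alternative fits (17 for the interaction), every shunt gene kept a negative log2 change in the 5 comparisons of genotypes, and no named gene's call turned in direction. Without any 1 library the shunt median ran from -1.388 to -1.203 in the double mutant against wild-type, -0.6446 to -0.4703 in eat-2 and -0.8066 to -0.6498 in acs-20. It ran from -0.8211 to -0.6586 for the double mutant against eat-2, -0.6432 to -0.4473 against acs-20 and -0.07657 to 0.07768 for the interaction. The B12-route median ran from -0.3213 to -0.189, -0.2452 to -0.1397, -0.02071 to 0.09603, -0.04196 to 0.03114, -0.2651 to -0.2097 and -0.06482 to 0.02453 in the same order. The 2 B12-route medians that moved by more than the replicate spread were 0.09603 in acs-20 without wild-type replicate 3 and -0.3213 in the double mutant without wild-type replicate 2. The number of genes changed ran from 1573 to 2676 for the double mutant (2526 with all libraries), 576 to 1272 for eat-2 (1103), 161 to 345 for acs-20 (318), 154 to 434 for the double mutant against eat-2 (304), 919 to 2026 against acs-20 (1863) and 8 to 150 for the interaction (27). DESeq2 gave 482 for acs-20, 542 for the double mutant against eat-2 and 125 for the interaction. Without a filter these were 539, 579 and 99. The cause was not tested. Without wild-type replicate 1 the double mutant, eat-2 and acs-20 against wild-type had 1573, 576 and 179 genes, and without wild-type replicate 3 the first 2 had 1581 and 724. Without eat-2 replicate 1 or 3, eat-2 had 712 and 708, and without acs-20 replicate 3, acs-20 had 161. Without double mutant replicate 1 or 2, the double mutant had 1676 and 1602 against wild-type, 155 and 174 against eat-2, and 1008 and 999 against acs-20. The double mutant against eat-2 had 154 without eat-2 replicate 3, and against acs-20 1061 and 919 without acs-20 replicate 1 or 3. The interaction count moved without 11 of the 12 libraries, up without acs-20 replicate 2 (150) and wild-type replicate 3 (69), and down to 8 to 17 without each of the others but eat-2 replicate 1.

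With the replicate number as a block the double mutant against eat-2 had 653 genes and the interaction 56. Under the block all 6 shunt genes were called in eat-2 (4 without it) and in the double mutant against acs-20 (5 without it), acdh-1 being gained in both and alh-8 in eat-2. Whether the numbers pair the samples is not settled. Over all genes, departures of same-numbered samples correlated at -0.0912 to 0.429, with medians of -0.00445, 0.166 and 0.206 for replicates 1, 2 and 3. Of 12 samples 7 correlated best with their own number. Over all named genes, comparisons and alternatives, 187 values lost a call, 80 gained one and 3906 kept their side of the threshold. RLE factors left the median of all genes at 0.002116 in the double mutant, against 0.03938 with TMM. Depth limits mce-1 most.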
